A study of Oryctolagus cuniculus with 16 samples.

Results

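The enzymes and receptors of the lipoxygenase and leukotriene pathway were examined in the femoral head of a rabbit model of Perthes disease. The 8 genes, taken by name from 20255 in the table of total RNA counts, were *ALOX5*, *ALOX5AP*, *ALOX12*, *ALOX15*, *LTA4H*, *LTC4S*, *LTB4R* and *CYSLTR1*. The rule uses names alone, but the 8 genes were chosen with earlier results of these data known. All 8 passed the low-count filter.

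Perthes disease is a childhood osteonecrosis of the femoral head. The Perthes group held 5 libraries of the femoral head, one from each of 5 rabbits, with the head made ischaemic by hip surgery at 8 weeks of age that combined a permanent ligature around the neck of the femur with division of the ligamentum teres. The control group held 3 libraries from rabbits labelled wild type, and the operated animals were bought as wild type too. A sham operation, the age of the controls and the interval from surgery to collection are not given in the sources used here, so effects of the ischaemia, of surgery and of age cannot be told apart. The libraries held 26757077 to 29461483 expected counts, with the controls between 26757077 and 28783093. Markers of bone (*COL1A1*, *IBSP*) and cartilage (*COL2A1*, *ACAN*) were counted in every library, as the label femoral head implies. Perthes rabbit 4 stood apart from the other libraries on the second principal component.

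Leukotrienes are short-lived lipid signals made from arachidonic acid, mostly by cells of the myeloid lineage. Arachidonate 5-lipoxygenase (*ALOX5*), helped by its membrane partner 5-lipoxygenase-activating protein (*ALOX5AP*), forms leukotriene A4. The hydrolase encoded by *LTA4H* turns it into leukotriene B4, a neutrophil attractant read by the receptor *LTB4R*, whereas the synthase encoded by *LTC4S* joins it to glutathione to start the cysteinyl leukotrienes, which act through *CYSLTR1*. The lipoxygenases *ALOX12*, known from platelets, and *ALOX15*, first studied in rabbit reticulocytes and abundant in eosinophils of several species, oxygenate arachidonic acid at other carbons. In the annotation of the authors' table, 5 of the 8 genes carry the pathway term arachidonic acid metabolism (*ALOX5*, *ALOX12*, *ALOX15*, *LTA4H* and *LTC4S*), and the 2 receptors carry neuroactive ligand-receptor interaction.

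Expression of *ALOX5*, *ALOX5AP*, *ALOX12*, *LTA4H* and *LTB4R* fell in the Perthes group, *ALOX15* was lower in each Perthes rabbit than in each control but missed the threshold, and the levels of *LTC4S* and *CYSLTR1* overlapped between groups. A change was called at an adjusted p below 0.05 in the quasi-likelihood test of edgeR, where p-values were adjusted by Benjamini-Hochberg across 15305 genes that passed the filter. By this rule 5 of the 8 genes fell and 0 rose, whereas 8.87% of all genes tested fell and 6.21% rose. At an unadjusted p below 0.05, 6 fell and 0 rose. That level is loose here, since a gene with an edgeR p of 0.0465 ranked 4757 of the 15305, both directions together. DESeq2 called 6 of the 8 lower and 0 higher at an adjusted p below 0.05. Over all genes tested it called 1916 lower and 1720 higher. The median log2 fold change (Perthes over control) was -2.30 over the 8 genes and 0.02 over all genes tested. The groups did not overlap, with Perthes lower, in 6 of the 8 genes, compared with 13.9% of all genes tested. These 6 include *ALOX15*, which passed the low-count filter mainly through its control counts. In 0 of the 8 genes were the groups apart with Perthes higher, compared with 11.2% of all genes. These calls depended on the controls, because without control rabbit 1 only *ALOX5AP* was called (1 gene) and without control rabbit 2 none was (0 genes). Without Perthes rabbit 4, the library that stood apart, 4 were called, the loss being *LTA4H*. In the fit without control rabbit 2 no gene of the whole table had an adjusted p under 0.0519, while 6 of the 8 genes still had an unadjusted p below 0.05. The share of all genes at that unadjusted level was not counted in this fit. Fewer cells of an expressing type and less RNA per cell cannot be told apart in bulk tissue.

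**Figure D1:**
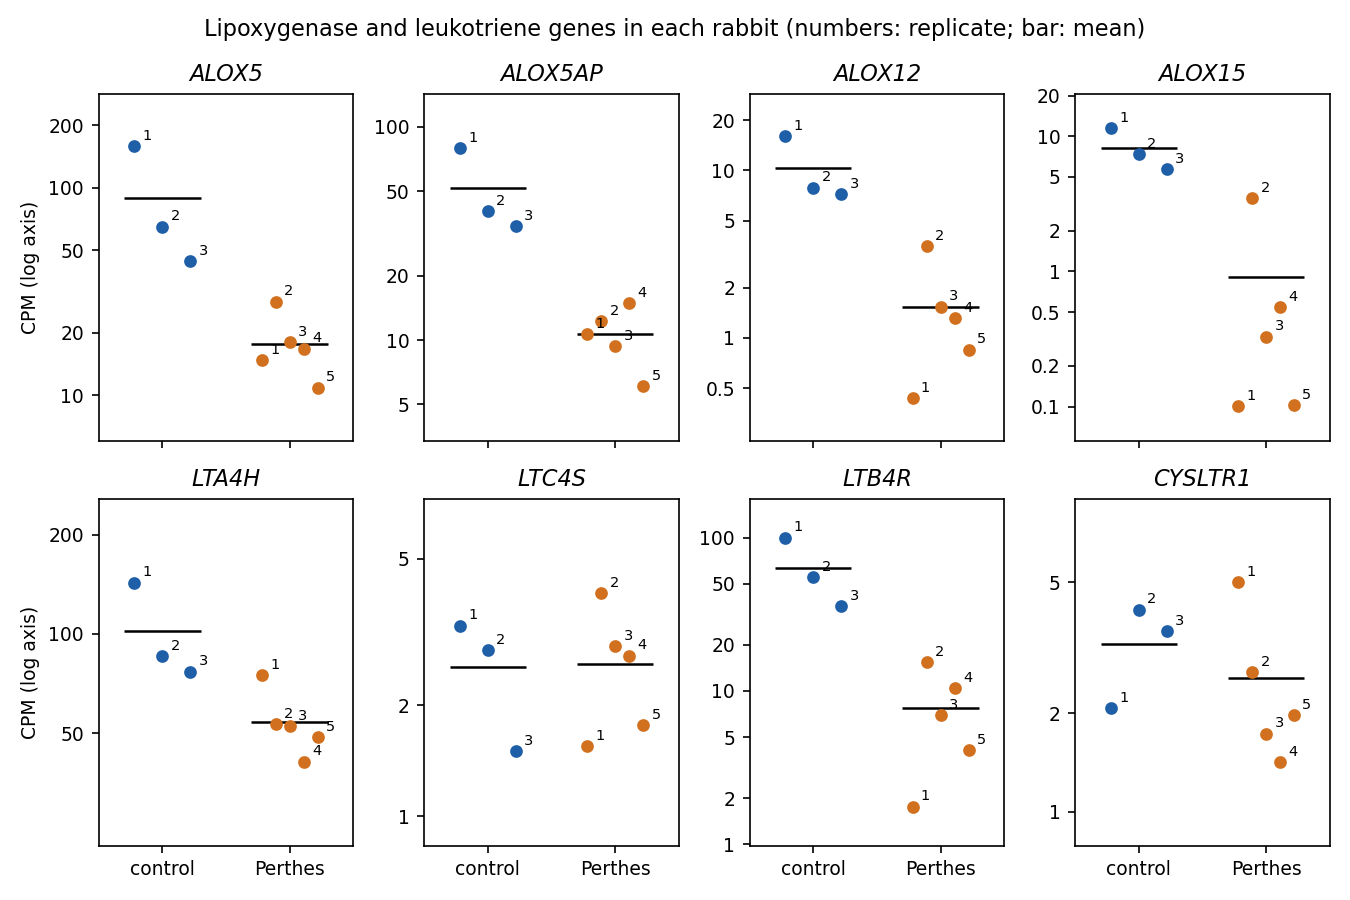
Normalized expression (CPM, counts relative to library size after TMM scaling, log axis) of the 8 genes in each of 3 control and 5 Perthes rabbits, 1 panel per gene. Points are rabbits, numbered by replicate, and bars are group means. Groups are separate for 6 genes and overlap for *LTC4S* and *CYSLTR1*, and control 1 is the highest library for 6 genes.

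Levels are given in CPM, counts relative to library size after TMM scaling. *ALOX5*, the first enzyme of leukotriene synthesis, was counted at 158, 65.0 and 44.2 CPM in control rabbits 1 to 3. It was counted at 14.8, 28.3, 18.0, 16.8 and 10.9 CPM in Perthes rabbits 1 to 5. Even the lowest control lay above the highest Perthes rabbit, and control 1 was far above the other controls. Expression averaged 17.8 ± 6.51 CPM in Perthes (SD, n = 5) and 89.0 ± 60.5 CPM in control (SD, n = 3), and the log2 fold change was -2.32 (SE 0.42, 95% interval -3.27 to -1.38, adjusted p = 0.0136). On linear means, expression was 5.01-fold higher in the controls. The call was lost without control 1 (log2 fold change -1.62, adjusted p = 0.0514) and without control 2 (-2.51, adjusted p = 0.0519).

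*ALOX5AP* encodes the partner that presents arachidonic acid to 5-lipoxygenase. Its expression was 79.7, 40.4 and 34.3 CPM in the controls and 10.7, 12.3, 9.40, 14.9 and 6.09 CPM in Perthes rabbits 1 to 5. The groups did not overlap, and the ranking of controls was that seen for *ALOX5*. The group values were 10.7 ± 3.29 CPM and 51.5 ± 24.6 CPM (SD, n = 5 and n = 3), a log2 fold change of -2.27 (SE 0.34, 95% interval -3.03 to -1.51, adjusted p = 0.0118). This was the only one of the 8 genes still called without control 1, and it was not called without control 2 (-2.42, adjusted p = 0.0519). Within a rabbit, the log2 ratio of *ALOX5AP* to *ALOX5* was -0.72 ± 0.40 in Perthes and -0.68 ± 0.31 in control (SD), a difference of -0.04 on the log2 scale.

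Leukotriene A4 hydrolase (*LTA4H*) makes leukotriene B4 and is known in many cell types. Its expression was 143, 85.8 and 76.8 CPM in the controls and 75.0, 53.3, 52.6, 41.0 and 48.6 CPM in Perthes rabbits 1 to 5. The groups were only just apart, since control 3 exceeded Perthes rabbit 1 by a factor of 1.02. The means were 54.1 ± 12.7 CPM in Perthes and 102 ± 36.1 CPM in control (SD), and the log2 fold change of -0.91 (SE 0.25, 95% interval -1.49 to -0.34, adjusted p = 0.0425) was the smallest among the 5 genes called. Of the 8 fits that each left out a rabbit, 2 kept the call. It was lost without any one of Perthes rabbits 2, 3, 4 and 5 or controls 1 and 2, at adjusted p values from 0.061 to 0.166, the largest without control 1 (log2 fold change -0.58).

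The other branch from leukotriene A4 is that of leukotriene C4 synthase. *LTC4S* was counted at 3.29, 2.82 and 1.5 CPM in the controls and at 1.55, 4.04, 2.90, 2.73 and 1.77 CPM in Perthes rabbits 1 to 5. Perthes rabbit 2 was the highest and control 3 the lowest of the 8 libraries, and the groups overlapped throughout. Means were 2.60 ± 0.997 CPM and 2.53 ± 0.929 CPM (SD), with a log2 fold change of 0.04 (SE 0.39, 95% interval -0.84 to 0.91, adjusted p = 0.958) that turned to -0.07 when library totals replaced TMM. These levels rest on 45 to 108 counts per library, and the interval leaves room for changes of moderate size either way.

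Within a rabbit, the 2 branch enzymes can be set against *ALOX5*. The log2 ratio of *LTA4H* to *ALOX5* was 1.65 ± 0.60 in Perthes and 0.35 ± 0.47 in control. For *LTC4S* to *ALOX5* the log2 ratio was -2.75 ± 0.26 in Perthes and -4.96 ± 0.54 in control. Group means differed by 1.29 and 2.21 on the log2 scale. The groups did not overlap for either ratio, although the lowest Perthes value for *LTA4H* to *ALOX5* was 0.91 and the highest control value 0.80. A total of 6 ratios were compared, chosen after the values were seen. In an exact two-sided permutation test each of these 2 ratios had an unadjusted p of 0.0357, the smallest this design can give. Adjusted over the 6 ratios, the smallest p was 0.107, which that limit keeps from being small, so the test does not decide whether the ratios differed. Ratios within a library show unequal difference only, not which gene was unaltered.

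*ALOX12*, the platelet-type 12-lipoxygenase, was expressed at 16.0, 7.90 and 7.25 CPM in the controls and at 0.439, 3.52, 1.54, 1.31 and 0.851 CPM in Perthes rabbits 1 to 5. The groups were apart, and Perthes rabbit 2 came closest to the controls. Expression was 1.53 ± 1.19 CPM in Perthes and 10.4 ± 4.90 CPM in control (SD), and the log2 fold change was -2.76 (SE 0.57, 95% interval -4.05 to -1.47, adjusted p = 0.0173). It was not called without control 1 (-2.30, adjusted p = 0.0778) or control 2 (-2.93, adjusted p = 0.0562).

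*ALOX15* had the widest spread among Perthes rabbits. It was counted at 11.5, 7.33 and 5.69 CPM in the controls. The Perthes rabbits had 0.101, 3.48, 0.330, 0.546 and 0.102 CPM, of which rabbits 1 and 5 held 3 counts each and rabbit 2 held 93. Rabbit 2 alone was therefore 34.4 times as high as rabbit 1, but still below the lowest control. The means of 0.912 ± 1.45 CPM and 8.19 ± 3.02 CPM (SD) gave a log2 fold change of -3.17 (SE 0.97, 95% interval -5.37 to -0.97) with an adjusted p of 0.0575. Without Perthes rabbit 2 the log2 fold change was -4.91 (adjusted p = 0.00198), with library totals in place of TMM it was -3.30 (adjusted p = 0.0464), and DESeq2 gave an adjusted p of 0.00578. *ALOX15* and *ALOX12* lie next to each other on one chromosome in RefSeq annotation of mOryCun1.1, with 0 coding genes between them. RefSeq lists both 12-lipoxygenase and 15-lipoxygenase names for the *ALOX15* identifier, and the counts do not show which carbon the enzyme oxygenates. The log2 ratio of *ALOX12* to *ALOX15* ranged from 0.02 to 2.42 in Perthes and from 0.11 to 0.47 in control.

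*LTB4R*, the high-affinity receptor for leukotriene B4, was expressed at 100, 55.2 and 35.8 CPM in the controls and at 1.76, 15.5, 6.98, 10.4 and 4.12 CPM in Perthes rabbits 1 to 5. No Perthes rabbit reached the lowest control. The Perthes mean was 7.76 ± 5.42 CPM and the control mean 63.7 ± 33.0 CPM (SD), an 8.21-fold higher expression in the controls, and the log2 fold change was -3.04 (SE 0.60, 95% interval -4.40 to -1.68, adjusted p = 0.0158). The call was lost without control 1 (-2.55, adjusted p = 0.0681) and without control 2 (-3.13, adjusted p = 0.0555). Among the 8 genes it is the only one whose deposited counts are not whole numbers: in 8 of 8 libraries the values of *LTB4R* and its neighbour *LTB4R2*, the low-affinity receptor, add up to a whole number within 0.001, and *LTB4R2* took 0.836% to 12.4% of the sum. Reads shared by the pair were thus divided between them, so the individual levels are uncertain. Summed into 1 gene, an alternative chosen after seeing the data, the pair had a log2 fold change of -3.01 (SE 0.62, adjusted p = 0.0174).

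*CYSLTR1*, the receptor with highest affinity for leukotriene D4, was expressed at 2.07, 4.13 and 3.56 CPM in the controls and at 5.00, 2.66, 1.73, 1.42 and 1.97 CPM in Perthes rabbits 1 to 5. The highest library was Perthes rabbit 1, the lowest Perthes rabbit 4, and the groups overlapped. With means of 2.56 ± 1.44 CPM and 3.25 ± 1.06 CPM (SD), the log2 fold change was -0.35 (SE 0.44, 95% interval -1.33 to 0.64, adjusted p = 0.62). Exact two-sided permutation tests of mean log2 CPM over 56 divisions of the rabbits gave p = 0.393 for *CYSLTR1*, 0.893 for *LTC4S* and 0.0357, the smallest p this design can give, for each of the other 6 genes.

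The study's own thresholds were a log2 fold change beyond 2 in size with an adjusted p below 1e-05. By edgeR, 0 of the 8 genes and 0 of all genes tested met both. Of the 8 genes, 5 had a log2 fold change beyond 2 with an unadjusted p below 0.05, and 4 with an adjusted p below 0.05. These counts were not made over all genes. By DESeq2, 2 of the 8 met both, *ALOX5AP* (adjusted p = 1.81e-07) and *ALOX5* (adjusted p = 6.23e-06), among 200 such genes. *LTB4R* (DESeq2 adjusted p = 1.26e-05) and *ALOX12* (4.37e-05) passed the fold threshold only. The paper reported many more genes at these thresholds and named *ALOX5*, *ALOX12* and *LTB4R* among the hub genes of its network. Why the totals differ was not tested.

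**Figure D2:**
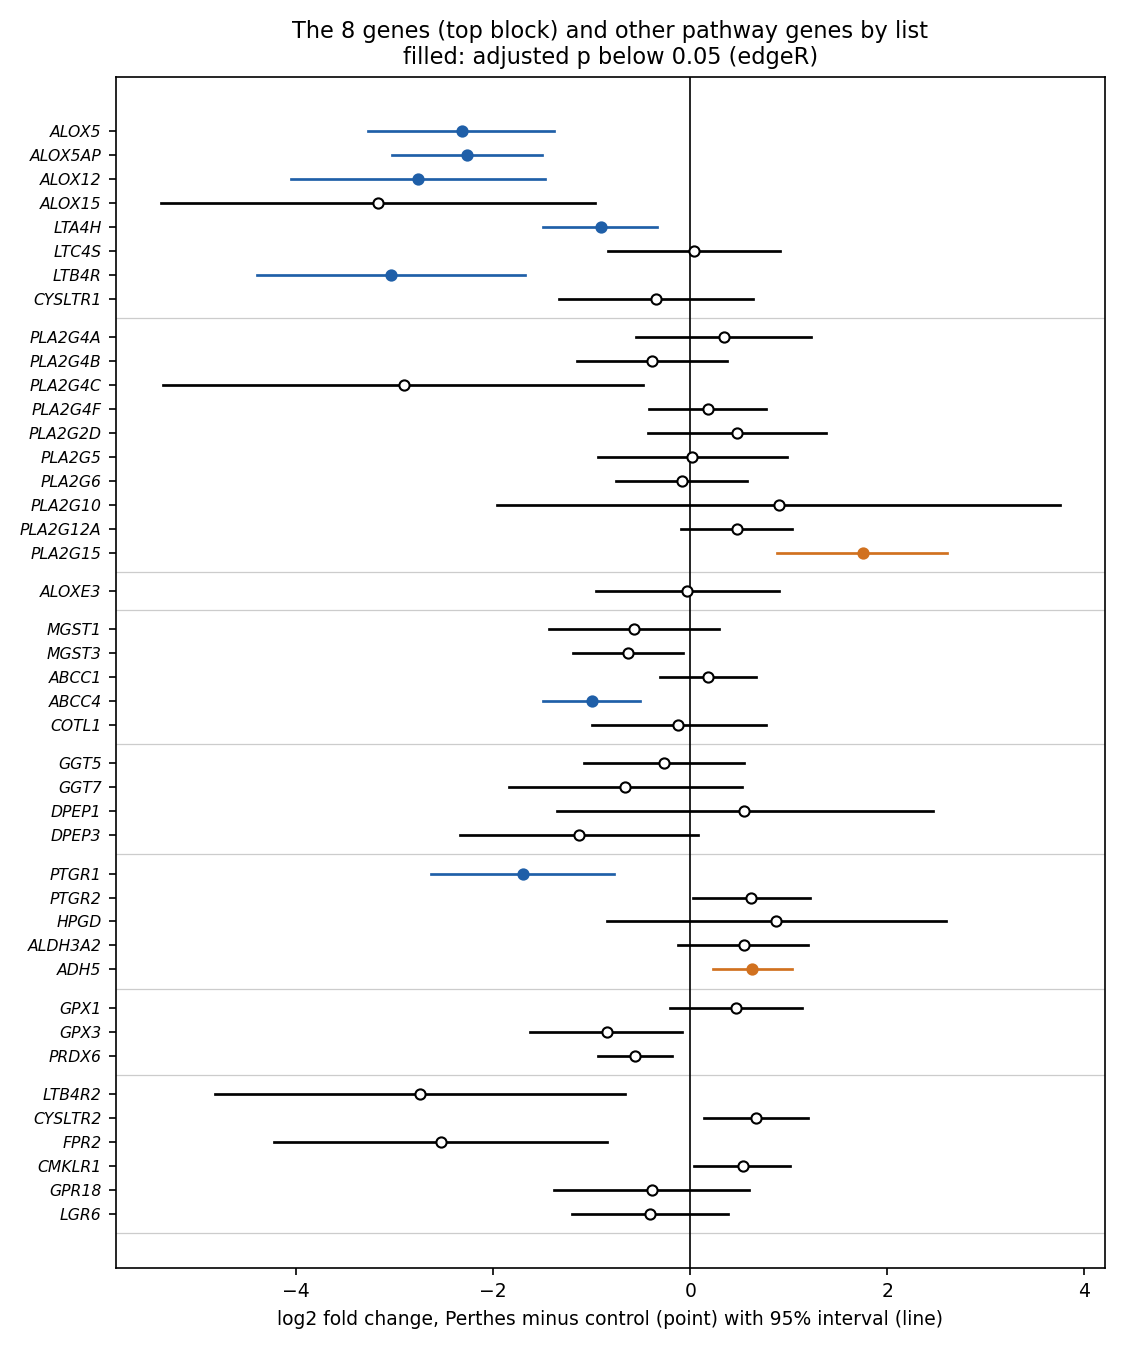
Log2 fold change (Perthes over control, x axis) with 95% interval from edgeR for the 8 genes in the top block and for other pathway genes grouped by list, with filled points for genes with an adjusted p below 0.05. In the top block 6 genes lie between -3.17 and -0.91, with *CYSLTR1* at -0.35 and *LTC4S* at 0.04, and the other lists have a median of -0.06.

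Among the 6 genes whose groups were apart, the 3 controls were the 3 highest libraries and control 1 was the highest in each. The order within the Perthes group differed between genes: rabbit 2 was the highest Perthes library for 5 of the 8 genes, and rabbit 1 was the lowest for 4 and the highest for 2. To describe likeness, log2 CPM was centred on each gene's mean and compared over the 8 libraries by the root mean square difference. Of 28 pairs among the 8 genes, *ALOX5* and *ALOX5AP* were the closest (0.33), followed by *ALOX12* and *LTB4R* (0.35), and *ALOX15* and *CYSLTR1* were the farthest apart (2.32). The measure takes in the difference between groups, so genes with like fold changes tend to lie close. *TAGAP* lay closer to *ALOX5* (0.13) than *ALOX5AP* did, and *H1-5* closer to *ALOX12* (0.17) than *LTB4R* did.

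By the same measure, the 3 named genes nearest to *ALOX5* were *TAGAP* (0.13), *PRAM1* (0.16) and *AGAP2* (0.17). Nearest to *ALOX5AP* were *SLCO4C1* (0.20), *IRAG2* (0.24) and *NHSL2* (0.24). *ALOX12* ran closest to *H1-5* (0.17), *FFAR4* (0.20) and *SELP* (0.20), the last encoding P-selectin, an adhesion receptor of platelets and endothelium. For *ALOX15* the nearest genes were *ABCB4* (0.36), *VIL1* (0.36) and *SLC18A2* (0.38), the last a vesicular monoamine transporter. *LTB4R* was nearest to *RSPH14* (0.28), *ICAM3* (0.29) and *ITGA2B* (0.30), an integrin subunit of platelets and megakaryocytes. *LTA4H* lay nearest to *FLI1* (0.14), a transcription factor of blood and endothelial cells, *TRIM21* (0.15) and *SEC22C* (0.15). *LTC4S* lay nearest to *IGDCC3* (0.19), *FDXR* (0.20) and *PARD6B* (0.21), and *CYSLTR1* nearest to *PERP*, *ZNF518A* and *CMC4* (0.27 each).

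Genes that supply, export, break down or sense these lipids were examined next, from lists set by function. Of 50 listed genes, 36 were analysed and 34 passed the low-count filter. Among those 34, 2 fell, 2 rose and 30 did not pass the test, with a median log2 fold change of -0.06, against 8.87% lower and 6.21% higher over all genes. DESeq2 called 5 lower and 3 higher.

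Of the phospholipases that release arachidonic acid, 10 were tested, 0 fell and 1 rose (median 0.26). *PLA2G15*, a lysosomal phospholipase, rose to 62.8, 51.6, 57.5, 23.8 and 95.5 CPM in Perthes rabbits 1 to 5 from 16.9, 16.5 and 18.7 CPM in the controls (log2 fold change 1.75, SE 0.38, adjusted p = 0.0203). It was not called without control 1 (adjusted p = 0.0829) or control 2 (adjusted p = 0.082). *PLA2G4A*, the cytosolic phospholipase that supplies leukotriene synthesis, was expressed at 54.1 ± 30.9 CPM in Perthes and 42.8 ± 3.10 CPM in control (log2 fold change 0.34, SE 0.39, adjusted p = 0.587). *PLA2G4C*, chosen after its values were seen, had 0.169, 14.5, 1.43, 2.00 and 0.545 CPM in Perthes and 43.4, 21.2 and 19.6 CPM in control, groups that did not overlap, but its adjusted p was 0.0991 (log2 fold change -2.91, SE 1.08).

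Of 5 other genes for leukotriene C4 synthesis and export, 1 fell and 0 rose (median -0.57). *ABCC4*, an efflux pump for leukotrienes, fell to 53.2 ± 15.1 CPM from 106 ± 8.29 CPM (log2 fold change -1.0, SE 0.22, adjusted p = 0.0195). This call was lost without Perthes rabbit 3 (adjusted p = 0.0521), Perthes rabbit 5 (0.0585), control 1 (0.0642) or control 2 (0.0812). *COTL1*, an actin-binding protein that binds 5-lipoxygenase, was at 191 ± 62.7 CPM in Perthes and 207 ± 112 CPM in control (log2 fold change -0.12, SE 0.39, adjusted p = 0.86). Only 1 other lipoxygenase was analysed here, the epidermal *ALOXE3*, at 0.866 ± 0.223 CPM and 0.880 ± 0.434 CPM, and it was not called (log2 fold change -0.03).

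Of 4 genes for the breakdown of cysteinyl leukotrienes, 0 passed the test (median -0.46). *GGT5*, the gamma-glutamyl transferase that turns leukotriene C4 into D4, was at 18.7 ± 8.61 CPM in Perthes and 22.4 ± 4.14 CPM in control (adjusted p = 0.648). *DPEP1*, a dipeptidase that turns leukotriene D4 into E4, was at 3.93 ± 5.11 CPM and 2.68 ± 1.06 CPM (adjusted p = 0.684). Of 5 genes for the breakdown of leukotriene B4 and hydroxy acids, 1 fell and 1 rose (median 0.62). *PTGR1*, which inactivates leukotriene B4, fell to 11.4 ± 6.84 CPM from 37.0 ± 8.42 CPM (log2 fold change -1.70, SE 0.41, adjusted p = 0.0271), a call lost without Perthes rabbit 1 (adjusted p = 0.0503), 3 (0.0562) or 5 (0.0635), control 1 (0.0753) or control 2 (0.106). *ADH5*, a dehydrogenase that can oxidise hydroxy fatty acids, rose to 38.3 ± 6.44 CPM from 24.8 ± 0.846 CPM (log2 fold change 0.63, SE 0.18, adjusted p = 0.0437). The *ADH5* call was lost with library totals alone (adjusted p = 0.0976), without the low-count filter (0.0558) and in 7 of 8 fits that left out a rabbit, the exception being Perthes rabbit 4, with adjusted p values from 0.0636 to 0.138. *ALDH3A2*, a fatty aldehyde dehydrogenase, was at 36.7 ± 10.5 CPM and 25.2 ± 6.98 CPM (adjusted p = 0.234).

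Of 3 peroxide-handling genes, which lower the hydroperoxides that lipoxygenases need and make, 0 passed the test (median -0.56). The glutathione peroxidase *GPX1* was at 413 ± 116 CPM in Perthes and 300 ± 80.6 CPM in control (log2 fold change 0.46, adjusted p = 0.314), and the peroxiredoxin *PRDX6* was at 91.6 ± 4.46 CPM and 135 ± 30.5 CPM (log2 fold change -0.56, adjusted p = 0.0513, 0.0133 by DESeq2). Of 6 other receptors for lipid mediators, 0 passed the test (median -0.40), and DESeq2 called 2 lower and 1 higher. *CMKLR1*, a receptor for chemerin and resolvin E1, was at 51.8 ± 7.61 CPM and 36.0 ± 9.75 CPM (adjusted p = 0.126), and *LGR6* was at 30.3 ± 7.62 CPM and 40.3 ± 19.8 CPM (adjusted p = 0.446). The receptors paired with the 2 genes above, chosen after their values were seen, were *CYSLTR2*, at 8.59 ± 1.36 CPM in Perthes and 5.41 ± 1.49 CPM in control (log2 fold change 0.67, SE 0.23, adjusted p = 0.0859, 0.0392 by DESeq2), and *LTB4R2*, at 0.770 ± 0.891 CPM and 5.14 ± 2.23 CPM (log2 fold change -2.74, SE 0.92, adjusted p = 0.0748, 0.0177 by DESeq2). The log2 ratio of *CYSLTR2* to *CYSLTR1* was 1.85 ± 0.67 in Perthes and 0.75 ± 0.59 in control. Also chosen after the values were seen, *FPR2*, which binds lipoxin A4, had 1.11, 5.28, 1.47, 11.8 and 2.83 CPM in Perthes and 47.8, 18.2 and 12.1 CPM in control (log2 fold change -2.53, SE 0.75, adjusted p = 0.0511, 0.00435 by DESeq2).

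Several blood lineages in which these enzymes are known to be made had lower marker levels in Perthes, as the 6 genes did. Most macrophage markers rose instead. The part of these lineages in the result was not tested. Of 11 neutrophil markers tested, 5 fell and 0 rose (median log2 fold change -3.69), where 8.87% of all genes fell, and DESeq2 called 10 lower. Groups were apart, with Perthes lower, for 10 of the 11, and their summed level was 516 to 3282 CPM in Perthes and 8367 to 25491 CPM in control. *LCN2* fell to 213 ± 209 CPM from 3130 ± 1723 CPM (log2 fold change -3.87, adjusted p = 0.0385), and *LTF*, at 179 ± 165 CPM and 2544 ± 2364 CPM, had an adjusted p of 0.0524. As with the 8 genes, no marker named here passes without control 2, where 0 genes of the table do. *MMP9*, which osteoclasts also make and which was named after its values were seen, had a log2 fold change of 0.34 (adjusted p = 0.558) and made up 483 of 516 CPM in Perthes rabbit 1. Without it the neutrophil sum was 32.3 to 2015 CPM in Perthes and 7430 to 24886 CPM in control. Control 1 held the highest neutrophil sum, as it held the highest level of the 6 genes. It also held the highest platelet, erythroid, eosinophil and mast cell sums, so this was not particular to neutrophil markers. Platelet and megakaryocyte markers, the lineage of *ALOX12*, summed to 200 to 716 CPM in Perthes and 790 to 1416 CPM in control. Of 11 tested, 5 fell and 0 rose (median -3.06), 8 were lower by DESeq2, and 10 were apart: *PLEK* fell (log2 fold change -1.27, adjusted p = 0.0138), while *ITGB3*, also an osteoclast integrin, was not called (-0.54, adjusted p = 0.318). Without *ITGB3* the platelet sum was 69.3 to 232 CPM in Perthes and 400 to 942 CPM in control.

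Eosinophils and, in rabbits, erythroid cells are known for *ALOX15*. Eosinophil markers summed to 1.86, 374, 52.4, 63.7 and 10.3 CPM in Perthes rabbits 1 to 5 and to 1255, 627 and 495 CPM in the controls, so that rabbit 2 was the highest and rabbits 1 and 5 the lowest of the Perthes group. The neutrophil, erythroid and mast cell sums had the same rabbits at the top and bottom, so this order was not particular to eosinophil markers. Of 5 tested, 1 fell and 0 rose (median -2.93), DESeq2 called 2 lower, and 4 were apart. *PRG2*, eosinophil major basic protein, was at 47.1 ± 72.1 CPM and 370 ± 180 CPM (adjusted p = 0.139), and *EPX*, eosinophil peroxidase, at 30.1 ± 47.1 CPM and 230 ± 133 CPM (adjusted p = 0.135). Erythroid markers summed to 663 to 2926 CPM in Perthes and 5894 to 6489 CPM in control, and of 10 tested, 3 fell and 0 rose (median -2.99), 6 were lower by DESeq2 and 10 were apart, although *SLC4A1* (log2 fold change -3.07, adjusted p = 0.114) and *ALAS2* (-2.97, adjusted p = 0.0692) were not called. The transferrin receptor *TFRC*, used by dividing cells in general and named after its values were seen, fell by 0.67 on the log2 scale (adjusted p = 0.0442) and made up 641 of 676 CPM in Perthes rabbit 1. Without *TFRC* the erythroid sums were 35.6, 2344, 406, 456 and 83.5 CPM in Perthes rabbits 1 to 5 and 4948 to 5636 CPM in control. Of 5 mast cell and basophil markers, 1 fell and 0 rose (median -1.83), 4 were lower by DESeq2 and 3 were apart, with sums of 8.58 to 54.7 CPM and 68.0 to 180 CPM. *HDC*, histidine decarboxylase, had a log2 fold change of -3.41 (adjusted p = 0.0545) and *KIT*, also found on blood progenitors, one of -1.48 (adjusted p = 0.0922). None of the defining markers analysed was at 0 in all libraries.

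Macrophages are another lineage that makes leukotrienes. Of 10 markers tested, 6 rose and 1 fell (median 1.62), with 6.21% and 8.87% of all genes doing so, and their sum was 826 to 7347 CPM in Perthes and 542 to 697 CPM in control. DESeq2 called 6 higher and 2 lower. Groups were apart with Perthes higher for 4 markers and lower for 1, against 11.2% and 13.9% of all genes. *MRC1* and *CD14* were called higher although their groups overlapped. *GPNMB*, also an osteoclast and osteoblast gene, had the largest rise among them (log2 fold change 7.54, adjusted p = 0.0118), and *CSF1R*, the receptor for macrophage colony-stimulating factor, rose by 1.07 on the log2 scale (adjusted p = 0.0326). *C1QC*, a complement gene of tissue macrophages, fell by 2.09 on the log2 scale (adjusted p = 0.0133), and the scavenger receptor *MARCO* had a log2 fold change of -2.19 (adjusted p = 0.0542). Both were named after their values were seen. Without *GPNMB* the sums were 1856, 1023, 1350, 512 and 1730 CPM in Perthes rabbits 1 to 5 and 518 to 677 CPM in control, so that Perthes rabbit 4 lay below the controls. Of 9 osteoblast and bone markers, 0 passed the test (median 0.06), with sums of 46369 to 145675 CPM in Perthes and 73958 to 92498 CPM in control. DESeq2 called 1 of them higher, *IBSP* (adjusted p = 0.0299), and 0 lower. Of 7 cartilage markers, 0 passed (median 1.02), with sums of 39678 to 154003 CPM and 47310 to 69036 CPM. These sums rest largely on *COL1A1* and *COL2A1*, which made up 44666 of 46369 CPM and 29008 of 39678 CPM in Perthes rabbit 1.

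**Figure D3:**
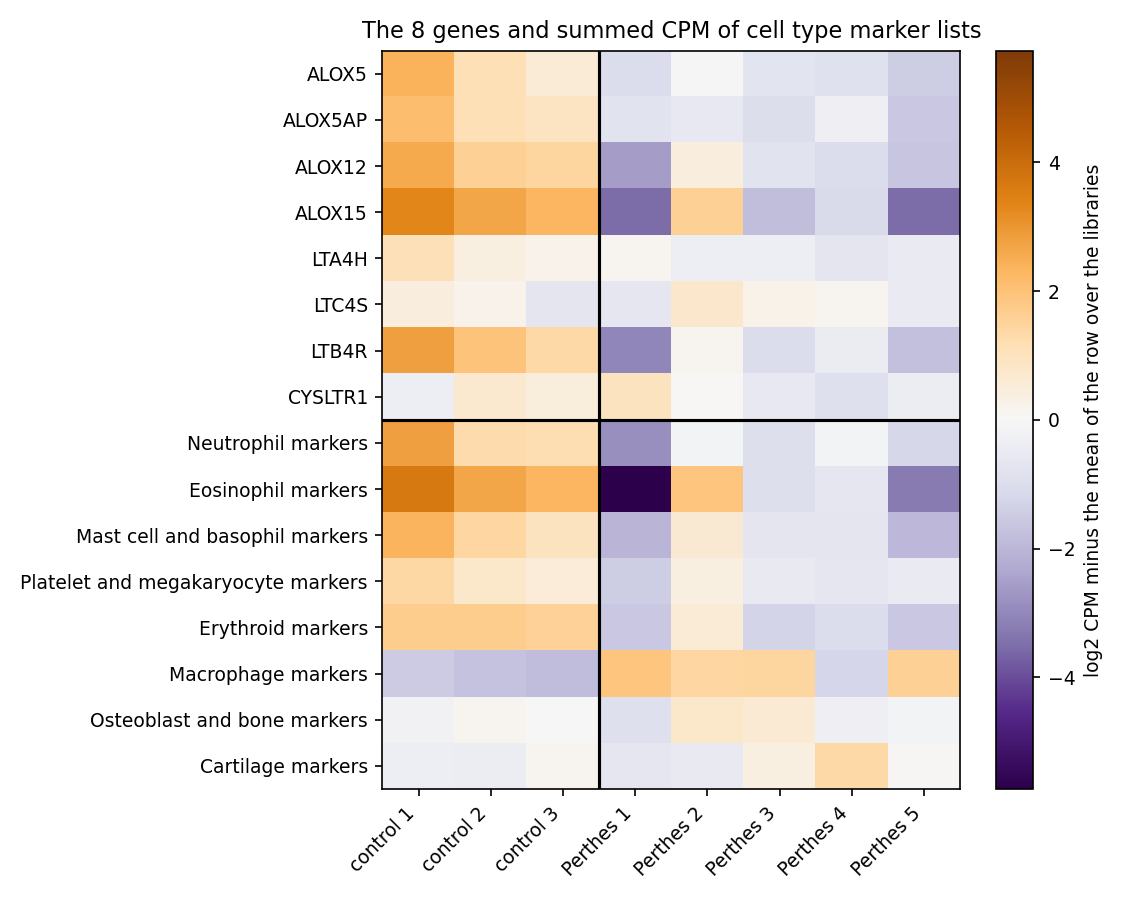
Level of each of the 8 genes and summed level of cell type marker lists in each library, as log2 CPM relative to the mean over the libraries (color scale), with 3 control and 5 Perthes columns. Of the genes, 6 are higher in controls, as are the neutrophil, platelet, erythroid, eosinophil and mast cell lists, and the macrophage list, with *GPNMB* included, is higher in Perthes rabbits.

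**Figure D4:**
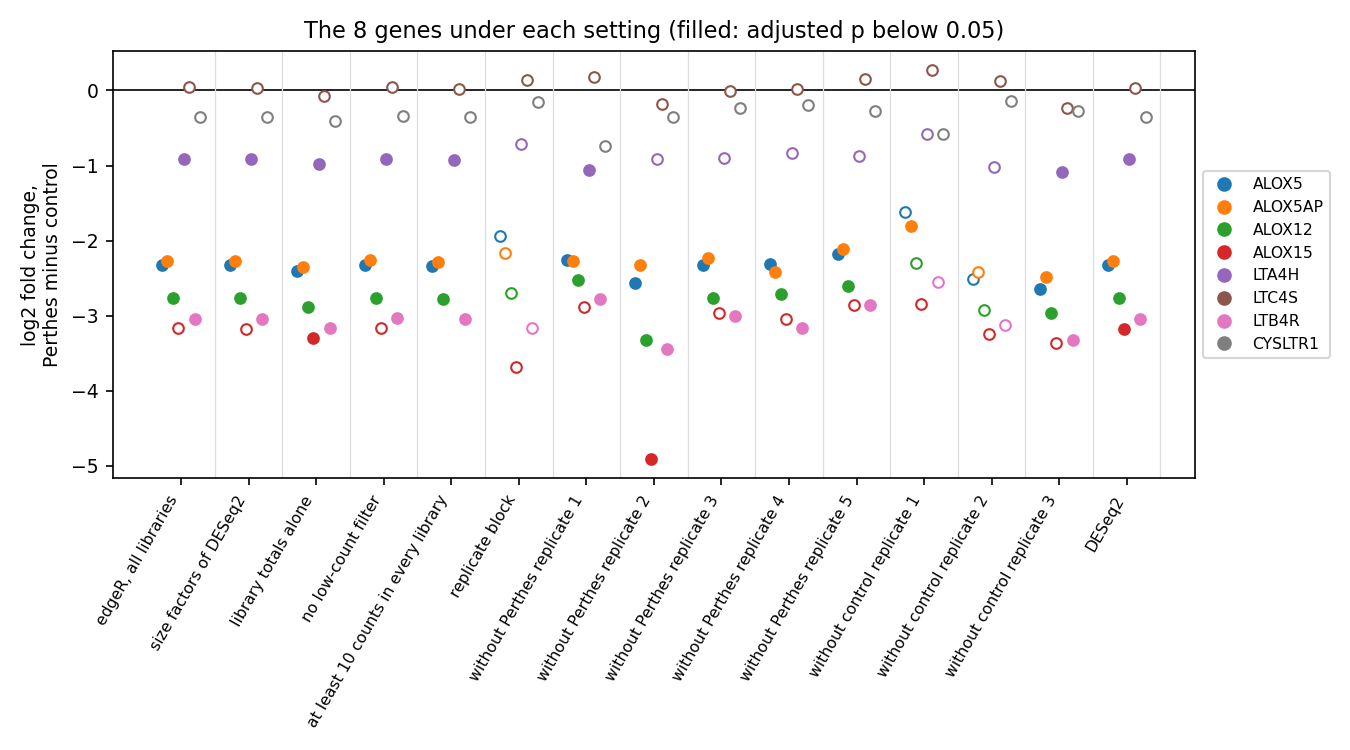
Log2 fold change (Perthes over control) of the 8 genes in the fit reported and under each alternative, with filled points for an adjusted p below 0.05. All values stay below 0 for 7 genes, *LTC4S* falls on both sides of 0, and leaving out control 2 or blocking on replicate number leaves 0 genes past the threshold.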

How the data were processed

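Total RNA of the femoral head was depleted of ribosomal RNA and made into directional libraries. After read filtering with SOAPnuke, the authors mapped reads with HISAT2 2.0.4 and obtained gene values from RSEM 1.1.17 and HTSeq 1.99.2 (per the methods and the submitters' processing notes). The values the authors deposited are expected counts without normalization, rounded to whole numbers here. Another 8 columns of per-sample values equal those used and were left out, and the small RNA libraries were not used here. The third control is numbered by its sample code, since its title gives another number.

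Libraries were scaled by TMM, genes were filtered by group with filterByExpr, and groups were compared with the quasi-likelihood test in edgeR 4.0.16 (R 4.3.3). The procedure was run on simulated counts with the same biological variation for every gene. That run does not show how it behaves for genes of wider spread, such as *ALOX15*. P-values of the 15305 remaining genes were adjusted by Benjamini-Hochberg. CPM carry the TMM scaling, and a prior count of 2 was added for log2 CPM. Libraries held at least 26757077 counts, and the common biological coefficient of variation was 0.361. Counting error adds most to genes of few counts, such as *ALOX15* with 3 in Perthes rabbits 1 and 5. Exact permutation tests listed every division of the rabbits in Python 3.11.15. The alternatives were DESeq2 1.42.0 (the study names this tool), other scalings and filters, the replicate number as a block, and fits that left out 1 rabbit. Levels were not compared between genes, because CPM are not per length.

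The 8 genes and all lists were chosen with earlier results of these data known. By the naming rule, the text names the 8 genes, every pathway list gene called, the 2 of highest mean CPM in each list and the 3 genes of most similar pattern. Gene order came from RefSeq for mOryCun1.1, another assembly, which matched 16307 of the 20255 identifiers. No coordinates of it were used.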

Additional observations from a re-analysis of the deposited data

Results flagged for a closer look

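For 42 genes of the pathway (the 8 genes and 34 others tested), the gap from an end Perthes rabbit to its nearest neighbour was divided by the range. This ratio exceeded Dixon's limit for 5 values in 9 genes, 1 of them among the 8 genes. Chance flags about 1 group in 20 where values are normal, which CPM need not be, and genes that vary together are not independent. Perthes rabbit 2 stood above the rest for *ALOX15* at 3.48 CPM (next 0.546 CPM), *PLA2G4C* at 14.5 CPM (next 2.00 CPM), *ABCC4* at 79.6 CPM (next 51.6 CPM) and *DPEP1* at 13.0 CPM (next 2.75 CPM). The same rabbit had the highest Perthes sum of the eosinophil (374 CPM), erythroid (2926 CPM), platelet (716 CPM), mast cell (54.7 CPM) and neutrophil (3282 CPM) markers, and the part of these in the values was not tested. Perthes rabbit 1 stood above the rest for *PLA2G12A* at 13.6 CPM (next 9.75 CPM) and *GPR18* at 3.58 CPM (next 1.58 CPM). Perthes rabbit 4 was the highest for *GPX3*, a secreted glutathione peroxidase, at 89.1 CPM (next 46.1 CPM) and the lowest for *ADH5* at 27.2 CPM (next 39.0 CPM). *ALOXE3* was lowest in Perthes rabbit 5 at 0.477 CPM (next 0.910 CPM). The control group, with 3 rabbits, was not examined in this way.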

How the results depend on the processing

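The number of the 8 genes called lower was 5, was 6 with library totals alone or DESeq2, and ranged from 0 to 5 when 1 rabbit was left out; 0 were called higher in any setting. The same replicate number in both groups was tried as a replicate block, which left 0 of the 8 genes, 0 pathway genes and 0 of all genes called in either direction (*ALOX5AP* -2.16, adjusted p = 0.107; smallest adjusted p of all genes 0.0572). Deviations from the group means correlated at r = -0.317, 0.161 and -0.238 between same-numbered rabbits. Between rabbits of unlike number r ran from -0.314 to 0.435. With so few pairs this check cannot decide whether the numbers pair the rabbits. Pathway genes called lower numbered 2, with 4 under library totals alone, 4 with at least 10 counts in every library, 5 by DESeq2 and 0 to 4 with a rabbit left out. Pathway genes called higher numbered 2, with 1 under library totals alone, 1 without the low-count filter and 0 to 2 with a rabbit left out. Over all genes, 1357 were lower (0 to 1628 with a rabbit left out) and 951 higher (0 to 1267, and 1720 by DESeq2). The lowest counts came without control 2, and without control 1 there were 184 lower and 73 higher. *LTC4S* changed sign with library totals (-0.07) and without Perthes rabbit 2 (-0.18), Perthes rabbit 3 (-0.01) or control 3 (-0.23), and ranged from -0.23 to 0.27 with a rabbit left out. The other 7 genes kept a negative log2 fold change in every setting in which they were fitted. The filter of at least 10 counts in every library left 7 of the 8 genes and removed *ALOX15*. Causes of these differences were not tested. Depth limits *ALOX15* most, at 3 counts in Perthes rabbits 1 and 5. The sums of marker lists without *MMP9*, *TFRC*, *GPNMB* or *ITGB3* were added after seeing the data.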

Other observations

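Other cell type lists were measured beside the pathway. Of 6 B cell markers tested, 1 fell and 0 rose (median log2 fold change -1.23), with sums of 64.8 to 96.3 CPM in Perthes and 72.6 to 113 CPM in control. *EBF1*, a B lineage factor that adipocyte and stromal precursors also express, was at 50.0 ± 5.60 CPM and 40.1 ± 15.4 CPM (adjusted p = 0.418), and *CD22* was at 23.3 ± 12.3 CPM and 17.6 ± 5.84 CPM (adjusted p = 0.569). Of 6 T cell markers, 0 passed the test by edgeR or by DESeq2 (median -0.71), with sums of 6.22 to 18.0 CPM and 12.8 to 25.6 CPM. *LCK* was at 3.61 ± 1.25 CPM and 6.06 ± 2.36 CPM (adjusted p = 0.175), and *CD8A* at 2.99 ± 1.37 CPM and 5.41 ± 2.00 CPM (adjusted p = 0.163).

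Of 8 endothelial markers, 1 fell and 0 rose (median -0.33), with sums of 279 to 383 CPM in Perthes and 342 to 434 CPM in control. *PECAM1* was at 91.7 ± 17.3 CPM and 113 ± 37.6 CPM (adjusted p = 0.421), and *CDH5* at 73.8 ± 13.3 CPM and 55.8 ± 12.5 CPM (adjusted p = 0.219). Of 5 adipocyte markers, 0 passed (median -0.24), with sums of 129 to 1467 CPM and 478 to 1430 CPM; *LPL* was at 647 ± 400 CPM and 503 ± 398 CPM, and *ADIPOQ* at 203 ± 225 CPM and 239 ± 88.1 CPM. Skeletal muscle RNA was scarce, at 0.524 to 2.45 CPM in Perthes and 0.388 to 9.55 CPM in control, and 0 of 2 markers tested, *ACTA1* (adjusted p = 0.146) and *CKM* (adjusted p = 0.684), passed.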
